A study of Mus musculus with 7 samples.

Results

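The Msx, Prrx and Dlx genes encode homeodomain transcription factors that pattern the limb bud, and HDAC1 occupancy was described at 10 of them: Msx1, Msx2, Prrx1, Prrx2 and Dlx1 to Dlx6. HDAC1 takes acetyl groups off histone tails and works within corepressor complexes. A peak was assigned to a gene when it overlapped the annotated gene body or the 20 kb on either side. By that rule 47 of the 15347 HDAC1 peaks belonged to these genes, 28 at the Msx and Prrx genes and 19 at the Dlx genes. The Dlx genes lie in convergent pairs whose windows overlap, so each pair was treated as 1 locus and a peak was counted once per locus, which left 7 loci.

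Msx1 and Msx2 are targets of BMP signalling that are transcribed in limb mesenchyme and in the apical ectodermal ridge, the ectodermal rim that sustains outgrowth. Prrx1 and Prrx2 mark the limb mesenchyme itself, from which skeleton and connective tissue form, and embryos without both have malformed limbs. Dlx genes are transcribed largely in the ectoderm and ridge of the limb, and mice without both Dlx5 and Dlx6 have split hindfeet.

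The data came from ChIP-seq of 4 HDAC1 ChIP samples with 3 inputs, all of them wild-type Swiss Webster embryos at E11.5 (40 to 44 somites). Each sample pooled the forelimb and hindlimb buds of 3 litters, and no mutant or treated group was part of the experiment. Whole buds hold mesenchyme, ectoderm and other cells together, so binding in few cells and weak binding in many cannot be told apart. The authors called 1 list of peaks over all 4 ChIP samples against input, and that list holds coordinates alone. Rank here is the position of a peak in the list, with 1 as the best. It gives no height, read number or value of a single sample beside a peak, and the fold change and false discovery rate that the study's source data list per peak were not used here. The depth behind each peak is therefore not known from the list, no value has a replicate error and no test between groups of loci was made. Shares carry 95% Wilson intervals, taken over peaks or genes and not over biological replicates, and neighbouring peaks are not independent. All peak boundaries fall on a 50 bp grid, which limits the resolution of each length.

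The sequences at the starts of these genes differ in their content of CpG dinucleotides. Shown are 4 whose start HDAC1 covered or adjoined. The Prrx1 and Dlx3 starts were also under a peak but are not shown. Each is the 150 bp before the annotated coding-transcript start on the strand of the gene (GRCm38/mm10), with CpG dinucleotides in capitals. The Msx1, Msx2 and Dlx5 starts lay under a peak, and the Dlx2 start was 5 bp from one. The Msx1 stretch lay wholly under its peak. Peaks covered only 25 bp of the Msx2 stretch, 64 bp of the Dlx5 stretch and no base of the Dlx2 stretch.
Msx1, chr5:37824584-37824733, minus strand: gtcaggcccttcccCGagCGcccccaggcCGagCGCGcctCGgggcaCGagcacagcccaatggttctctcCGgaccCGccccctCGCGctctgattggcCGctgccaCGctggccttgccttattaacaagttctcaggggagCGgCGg
Msx2, chr13:53473075-53473224, minus strand: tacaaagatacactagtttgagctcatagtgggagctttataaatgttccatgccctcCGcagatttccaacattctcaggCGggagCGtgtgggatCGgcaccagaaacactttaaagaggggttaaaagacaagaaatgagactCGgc
Dlx2, chr2:71546755-71546904, minus strand: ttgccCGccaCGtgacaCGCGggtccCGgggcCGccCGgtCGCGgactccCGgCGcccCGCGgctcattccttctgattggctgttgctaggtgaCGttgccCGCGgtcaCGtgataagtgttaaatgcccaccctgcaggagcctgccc
Dlx5, chr6:6882086-6882235, minus strand: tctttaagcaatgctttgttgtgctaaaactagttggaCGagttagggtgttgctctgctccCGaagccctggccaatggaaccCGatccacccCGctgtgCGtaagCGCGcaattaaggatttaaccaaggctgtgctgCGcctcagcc

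The Dlx2 stretch held 17 CpG and the Msx1 stretch 15. The Dlx5 stretch had 8 and the Msx2 stretch 5. The same stretch before the first Prrx1 start held 0 CpG, although the longest of the 47 peaks lay over it. Among the starts compared here, the number of CpG in the 150 bp before a start thus did not follow the length of the peak at or beside it.

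The centres of the longest peaks at Prrx1 and Msx1 both lay in introns and were poor in CpG. They are shown because these peaks carried most of the HDAC1-covered sequence at their loci. Each is the central 150 bp, on the strand of the gene, with CpG in capitals.
Prrx1, chr1:163311225-163311374, minus strand: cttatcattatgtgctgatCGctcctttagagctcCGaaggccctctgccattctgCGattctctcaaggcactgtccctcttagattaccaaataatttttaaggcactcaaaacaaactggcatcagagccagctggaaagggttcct
Msx1, chr5:37822850-37822999, minus strand: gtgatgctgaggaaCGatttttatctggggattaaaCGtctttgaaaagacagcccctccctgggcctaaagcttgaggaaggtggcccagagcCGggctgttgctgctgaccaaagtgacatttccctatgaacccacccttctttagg
Each stretch held 3 CpG, with a GC content of 46.0% at Prrx1 and 51.3% at Msx1.

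Every one of the 10 genes had at least 1 HDAC1 peak within its window, where 59.2% of all 21851 coding genes did. A promoter was taken to reach from 2 kb before the start of a protein-coding transcript to 1 kb past it. All 10 genes had a peak at their own promoter (interval 72.2 to 100%), beside 44.1% of coding genes. The start base itself was covered at 5 of the 10, namely Msx1, Msx2, Prrx1, Dlx3 and Dlx5, beside 32.8% of coding genes. The best-ranked peak of the window lay at the gene's own promoter for 3 of the 10, Msx1, Prrx1 and Dlx3, beside 56.7% of the coding genes with a peak. For Prrx2, Dlx2 and Dlx5 it lay further into the gene, for Msx2 beyond the 3′ end, and for Dlx1, Dlx4 and Dlx6 at the partner gene. Both genes of a Dlx pair had the same best-ranked peak, at ranks 2161, 7880 and 3785. At most 1 gene of each pair could thus be counted, which lowers the share for the 10 genes by construction.

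**Figure D1:**
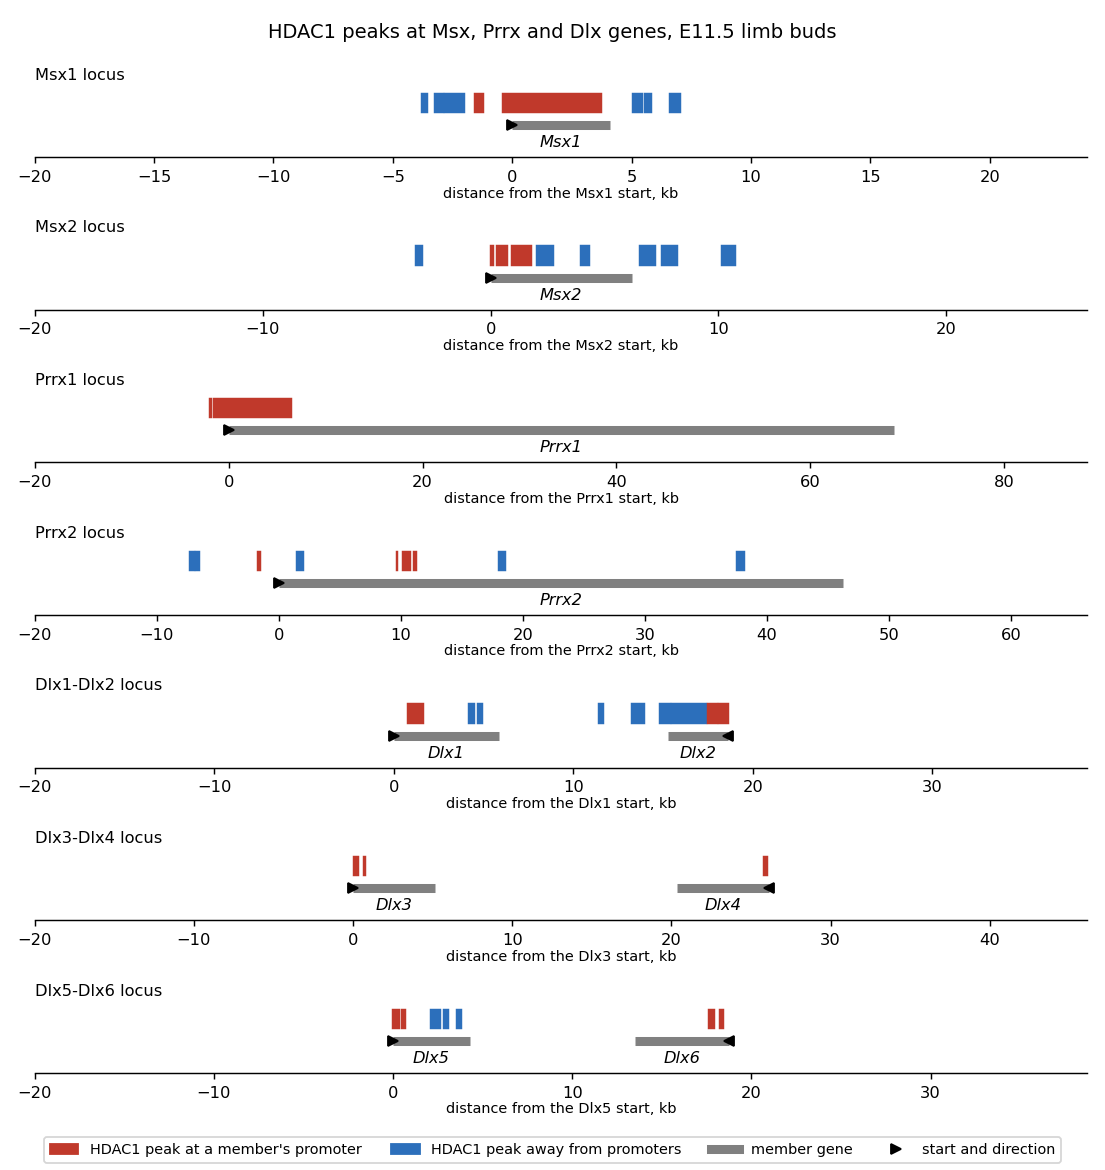
Position of each HDAC1 peak at the 7 loci, by distance in kb from the start of the first gene named (upstream negative), with peaks at a member's promoter in red, peaks away from promoters in blue, genes in grey and starts as arrowheads. Msx1 and Msx2 have peaks on both sides of the gene, the 2 Prrx1 peaks sit at the start of a 68592 bp gene, and the 3 peaks of Dlx3 and Dlx4 all lie at promoters.

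Msx1, a repressor downstream of BMP signalling, had the highest share of its window under HDAC1 peaks. The gene (chr5:37820485-37824583, minus strand, ENSMUSG00000048450.10) had 8 peaks, which covered 16.2% of its 44099 bp window, more than at 99.8% of coding genes. Its best peak ranked 605 and was 4150 bp long, running from 416 bp upstream of the start through nearly the whole gene, including 909 bp of coding sequence. The 500 peaks nearest to it in rank had a median length of 1400 bp, and 98.2% of them were shorter. Of the other 7 peaks, 4 followed each other upstream of the start and 3 lay past the 3′ end of the gene, and their lengths ranged from 250 to 850 bp. With gaps of up to 1000 bp closed, the long peak and the 4 upstream ones formed a domain of 7550 bp.

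Msx2, which acts with Msx1 in the limb and skull, had as many peaks but none of that size. The gene (chr13:53466884-53473074, minus strand, ENSMUSG00000021469.9) had 9 peaks of 150 to 900 bp, and together they covered 10.8% of the window, more than at 99.3% of coding genes. The GENCODE start of Msx2 lay under a peak of 150 bp at rank 14336, close to the end of the list. The start of the RefSeq transcript NM_013601.2 lay under another peak, of 500 bp at rank 7993. The best-ranked peak of Msx2, at 5224, was 600 bp long and began 10125 bp from the GENCODE start, beyond the 3′ end of the gene. A run of 4 peaks reached from the start into the intron and spanned 2750 bp when joined. Both Msx genes were thus covered in many pieces on either side of the gene, with the best-ranked piece at the promoter for Msx1 and not for Msx2.

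Prrx1 was covered by 1 broad peak. The gene (chr1:163245119-163313710, minus strand, ENSMUSG00000026586.16) had a peak of 8000 bp at rank 120, longer than the longest peak in the windows of 99.9% of coding genes. It reached from 1589 bp upstream of the start into the first intron, and 5095 bp of it were intronic. The peak also overlapped the annotated gene Gm37644, and the coordinates do not tell which gene it belongs to. The peaks no more than 250 ranks away had a median length of 1850 bp, and 97.8% of them were shorter. They numbered fewer than 500 because the list begins at rank 1, and most of them ranked worse than this peak. The second peak, 250 bp long at rank 12066, lay 200 bp further upstream. No peak was called over the rest of the gene or in the 20 kb past its 3′ end. Beyond the window the next peak lay upstream, 42140 bp from the gene.

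Prrx2, the paralogue of Prrx1, had the opposite arrangement, with many short peaks and none over an annotated GENCODE start. The gene (chr2:30834972-30881251, plus strand, ENSMUSG00000039476.13) had 9 peaks of 100 to 650 bp, which covered 4.17% of the window. They were spread from 6973 bp upstream of the first start to 27391 bp past the second. The best-ranked, at 3156, was 550 bp long and lay in an intron, 7891 bp past the second, downstream GENCODE start of the gene. A peak of 600 bp at rank 4371 began 41 bp from that start, and it covered the start of the RefSeq transcript NM_009116.2. The 2 most upstream peaks fell within the body of Asb6, a neighbouring gene for a SOCS-box protein, and not at its promoter. Hence, within flanks of 20 kb, 1 Prrx gene had nearly all of its HDAC1 coverage in a single promoter domain and the other had its coverage dispersed.

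Among the Dlx loci, Dlx1 and Dlx2 had the most coverage. Dlx1 (chr2:71528113-71533981, plus strand, ENSMUSG00000041911.3) and Dlx2 (chr2:71543408-71546754, minus strand, ENSMUSG00000023391.8) face each other on chromosome 2 and are transcribed together in forebrain and branchial arch ectomesenchyme as well as in limb ectoderm. Their 9 peaks covered 10.6% of the joint window, and 6 of the 9 lay away from promoters. The best-ranked, at 2161, was 1950 bp long and lay within Dlx2, from 1255 bp past its start towards the 3′ end. Its rank neighbours had a median length of 1000 bp, and 92.8% of them were shorter. Joined with the peaks around it, it formed a domain of 5450 bp that took in nearly all of Dlx2 and reached into the sequence between the genes. At Dlx1 the promoter peak was 900 bp long at rank 7485. It began 737 bp past the GENCODE start and covered the start of the RefSeq transcript NM_010053.2. It and the other 2 Dlx1 peaks also overlapped the antisense gene Dlx1as, and the peaks do not tell which of the genes they belong to.

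Dlx3 and Dlx4 had the least. Dlx3 (chr11:95120119-95125296, plus strand, ENSMUSG00000001510.8), which is needed for placenta, hair and tooth formation, had 2 promoter peaks of 350 and 150 bp, at ranks 7880 and 12685, and the first covered the start. Dlx4 (chr11:95140447-95146263, minus strand, ENSMUSG00000020871.8) had 1 peak of 300 bp at rank 13514, lying 114 bp past the start and inside the antisense gene Dlx4os as well. Together the 3 peaks covered 1.21% of the joint window, and none lay away from a promoter.

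Dlx5 and Dlx6 stood between the other pairs. Dlx5 (chr6:6877805-6882085, minus strand, ENSMUSG00000029755.10) had 5 peaks. One of 400 bp at rank 4678 lay over its starts, and one of 600 bp at rank 3785 lay in the gene body and was the best-ranked of the locus. Dlx6 (chr6:6863334-6868568, plus strand, ENSMUSG00000029754.13) had 2 peaks, of 250 and 300 bp at ranks 10727 and 6762. The nearer of them began 316 bp past its start, and both overlapped the noncoding genes Dlx6os1 and Dlx6os2. The 7 peaks covered 3.91% of the joint window. None was called in the sequence between the genes, where enhancers of this pair are known.

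**Figure D2:**
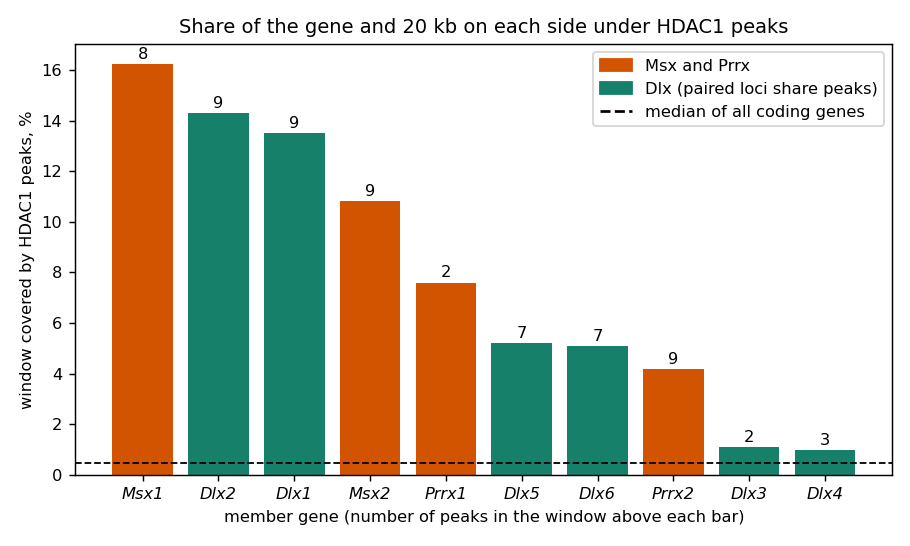
Percent of each gene's window (gene body and 20 kb on each side) covered by HDAC1 peaks, with the number of peaks above each bar and the median of all coding genes as a dashed line at 0.473%. Msx1 is highest at 16.2%, all 10 genes lie above the median, and Dlx3 and Dlx4 are lowest at 1.11% and 0.989%.

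Taking the classes as wholes, peaks covered 8.42% of the Msx and Prrx windows and 5.07% of the Dlx windows. The median over all coding genes was 0.473% and over the 10 genes 6.40%. This order of the classes depended on the flanks. Counted over gene bodies alone, peaks covered 12.4% of Msx and Prrx sequence and 25.9% of Dlx sequence. Most of that Msx and Prrx sequence belonged to Prrx1 (68592 bp) and Prrx2 (46280 bp), beside 4099 bp for Msx1 and 6191 bp for Msx2. The 12.4% therefore does not describe the Msx gene bodies. The loci within each class also overlapped. Dlx1-Dlx2 at 10.6% was about level with Msx2 at 10.8%, while Prrx2 at 4.17% was about level with Dlx5-Dlx6 at 3.91%. Without the Dlx1-Dlx2 locus the Dlx value was 2.48%, and without the Dlx3-Dlx4 locus it was 7.24%. Without Msx1 the Msx and Prrx value was 6.99%.

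Within the 20 kb flanks the peaks stayed close to their genes. At Msx1, Msx2, Prrx1 and Prrx2 the peaks outside the gene began at most 3567, 3935, 1790 and 6973 bp from it, and at the Dlx loci no whole peak lay outside the interval from one gene of the pair to the other. Beyond the windows the next peak was 42140 bp from Prrx1 at the nearest and 284585 bp from the Dlx5-Dlx6 pair at the farthest. With flanks of 50 kb the number of peaks was 52 in place of 47. Prrx1 was the only locus with a further peak within that distance, so the added peaks lay upstream of it. Within the windows the peaks were crowded, as 37 of the 47 lay no more than 1 kb from another peak, beside 36.3% of all peaks. That count was 21 of 28 at the Msx and Prrx genes and 16 of 19 at the Dlx genes.

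Of the 28 peaks at Msx and Prrx genes, 17 lay at no coding promoter (60.7%, interval 42.4 to 76.4%), and of the 19 at Dlx genes 9 did (47.4%, interval 27.3 to 68.3%). The intervals overlapped widely, and the order turned when gene bodies alone were counted, at 38.5% for Msx and Prrx and 41.2% for Dlx. Without Dlx3-Dlx4 the Dlx share was 56.2%, and without Dlx1-Dlx2 it was 30.0%. With promoters of 5 kb on both sides the shares were 28.6% for Msx and Prrx and 5.26% for Dlx. The share of all peaks was not recomputed for that setting. With the promoters used here, the share over all 47 was 55.3% (interval 41.2 to 68.6%), beside 29.9% of all peaks in the list. By locus the distal count within the 20 kb flanks was 6 of 8 at Msx1, 6 of 9 at Msx2, 0 of 2 at Prrx1 and 5 of 9 at Prrx2. It was 6 of 9 at Dlx1-Dlx2, 0 of 3 at Dlx3-Dlx4 and 3 of 7 at Dlx5-Dlx6. No peak of the 47 lay at the promoter of another coding gene.

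The classes differed in where the distal peaks lay. Of the 17 distal Msx and Prrx peaks, 10 were outside coding genes, 5 overlapped the Msx2 or Prrx2 gene and 2 were in Asb6. Of the 9 distal Dlx peaks, 7 overlapped a Dlx gene and 2 were wholly in the sequence between Dlx1 and Dlx2. One of the 7, at rank 12305, had 508 of its 600 bp in that sequence and 92 bp in Dlx2. Coding exons of the genes were touched by 10 of the 19 Dlx peaks and by 4 of the 28 Msx and Prrx peaks. Shares of all peaks at such positions are not given here, so these counts have no background beside them. The genes also differ in length, with 68592 and 46280 bp for Prrx1 and Prrx2 and 3347 to 5869 bp for the Dlx genes.

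The classes overlapped in length and rank. The median length was 425 bp at Msx and Prrx genes (range 100 to 8000 bp, binomial interval of the median 350 to 600 bp). It was 350 bp at Dlx genes (range 150 to 1950 bp, interval 250 to 600 bp) and 450 bp over all peaks. The order of the median lengths was not stable. After merging they were 725 and 800 bp, without Dlx5-Dlx6 they were 425 and 450 bp, and in the better-ranked part of the list both were 600 bp. The median rank was 8921.5 at Msx and Prrx genes (interval 6754 to 12066), 9879 at Dlx genes (interval 6762 to 12685) and 7674 over all peaks. Of the 47 peaks, 5 were among the first 3836 in the list and 17 among the last 3837. The members therefore combined many low-ranked short peaks with a few long ones. In all, 22 of the 47 were longer than the median of the 500 peaks around their rank and 6 were equal to it. For the broad Prrx1 peak, near the top of the list, fewer than 500 peaks entered that median.

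**Figure D3:**
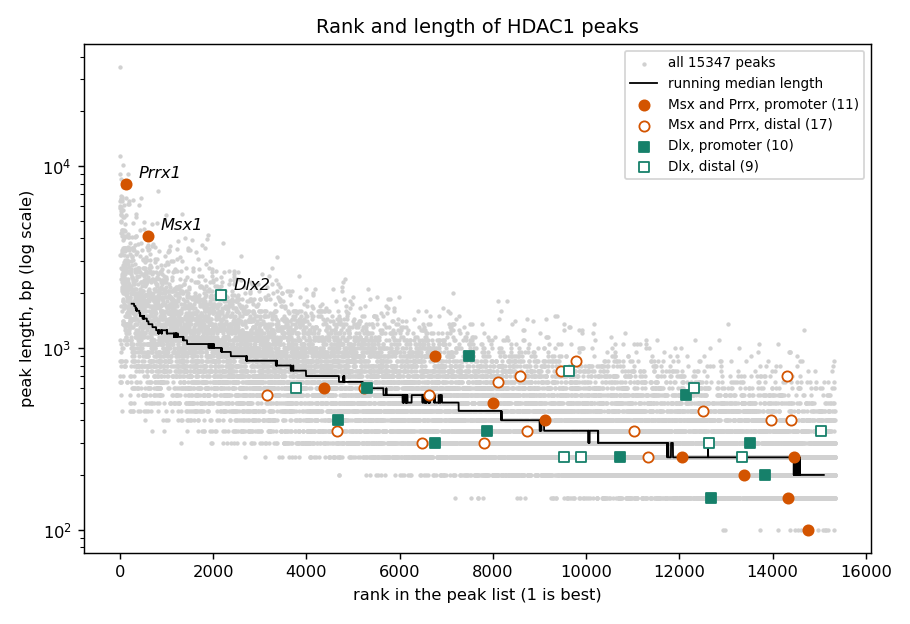
Length of each peak in bp (log scale) against its rank for all 15347 peaks (grey), with the running median of the 500 peaks around each rank (line), Msx and Prrx peaks as circles and Dlx peaks as squares, filled at promoters and open elsewhere. The line leaves out the first and last 250 ranks. The Msx1 (4150 bp) and Dlx2 (1950 bp) peaks stand above it, and the Prrx1 peak (8000 bp) lies at an earlier rank than its start. Most of the other member peaks lie below 1000 bp at late ranks.

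At promoters and away from them the order was similar. The promoter peaks of Msx and Prrx genes had a median of 400 bp and those of Dlx genes 325 bp. Their distal peaks had medians of 450 and 350 bp. Over the whole list promoter peaks were longer, at 550 bp, than distal peaks, at 300 bp. The 26 distal peaks of the 10 genes had a median of 425 bp and their 21 promoter peaks 350 bp, which is the reverse of that order.

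The sequence under the peaks separated the classes more clearly than length or rank did. Sequence was called CpG-rich where a 200 bp stretch had a GC content of at least 50% and a ratio of observed to expected CpG of at least 0.6. At the Dlx loci 82.3% of the peak sequence was CpG-rich, and over all coding-gene windows the share rounded to the same value, while at the Msx and Prrx loci 44.4% was. The value was 22.6% at Prrx1, 45.2% at Prrx2, 48.2% at Msx2 and 66.4% at Msx1, and at least 80.5% at each of the Dlx loci, so the loci of the classes did not overlap in this measure. The median GC content of the peaks was 54.3% and 59.3%, and the median ratio of observed to expected CpG was 0.470 and 0.706. Over all peaks these were 62.9% and 0.758. These sequence measures were not recomputed under the alternatives used for length and rank.

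Seen from the sequence, HDAC1 covered 44.5% of the CpG-rich bases of the Msx and Prrx windows and 25.3% of those of the Dlx windows, beside 15.6% over all coding-gene windows. The classes differed in how much CpG-rich sequence their windows held, 8.40% at Msx and Prrx genes and 16.5% at Dlx genes. It was 19.9% at Msx1, 13.4% at Msx2, 2.51% at Prrx1 and 7.29% at Prrx2. The Dlx windows held about as much CpG-rich sequence at each locus, 13.1 to 18.6% of the window, but the covered share of it was 45.8% at Dlx1-Dlx2, 17.5% at Dlx5-Dlx6 and 9.22% at Dlx3-Dlx4. That covered share was 54.2% at Msx1, 39.0% at Msx2, 68.4% at Prrx1 and 25.9% at Prrx2, so the loci of the classes overlapped. Outside CpG-rich sequence the covered share was 5.11% at Msx and Prrx genes and 1.07% at Dlx genes, beside 0.122% over all coding-gene windows. At Dlx3-Dlx4 no base outside CpG-rich sequence was covered.

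**Figure D4:**
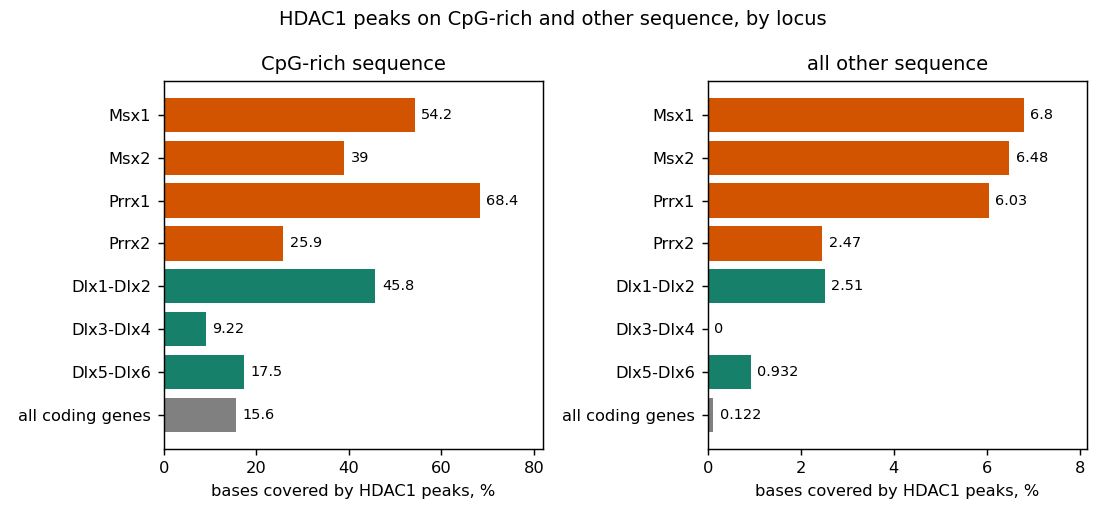
Percent of CpG-rich bases (left) and of all other bases (right) under HDAC1 peaks in the window of each locus, with Msx and Prrx loci in orange, Dlx loci in green and all coding-gene windows in grey. On other sequence Msx1, Msx2 and Prrx1 reach 6.03 to 6.80%, Prrx2 and Dlx1-Dlx2 reach 2.47 and 2.51%, and Dlx3-Dlx4 is at 0.

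Distal peaks of the loci ranged from CpG-poor to CpG-dense. Whole peaks of 250 to 300 bp are shown for 3 loci, on the strand of the nearest member gene. In the Msx2 and Dlx peaks CpG is in capitals, and in the Msx1 peak the E-box CATATG, a motif of basic helix-loop-helix factors, is. The Msx1 peak lies past the 3′ end of the gene, the Msx2 peak upstream of its start and the Dlx peak between Dlx1 and Dlx2.
Msx1, rank 6481, chr5:37818750-37819049, minus strand: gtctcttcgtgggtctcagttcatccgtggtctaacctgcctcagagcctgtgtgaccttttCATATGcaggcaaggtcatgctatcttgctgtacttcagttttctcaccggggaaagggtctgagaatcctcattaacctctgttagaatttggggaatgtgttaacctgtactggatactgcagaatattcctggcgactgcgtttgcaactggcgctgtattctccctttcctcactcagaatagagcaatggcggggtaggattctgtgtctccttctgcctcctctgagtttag
Msx2, rank 7798, chr13:53476100-53476399, minus strand: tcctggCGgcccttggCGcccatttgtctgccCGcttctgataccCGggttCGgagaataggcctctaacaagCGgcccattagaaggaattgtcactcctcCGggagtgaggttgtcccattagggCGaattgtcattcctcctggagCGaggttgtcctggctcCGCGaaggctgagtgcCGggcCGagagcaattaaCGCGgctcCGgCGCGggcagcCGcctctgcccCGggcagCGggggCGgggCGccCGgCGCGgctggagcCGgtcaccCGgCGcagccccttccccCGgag
Dlx1-Dlx2, rank 9523, chr2:71539500-71539749, minus strand: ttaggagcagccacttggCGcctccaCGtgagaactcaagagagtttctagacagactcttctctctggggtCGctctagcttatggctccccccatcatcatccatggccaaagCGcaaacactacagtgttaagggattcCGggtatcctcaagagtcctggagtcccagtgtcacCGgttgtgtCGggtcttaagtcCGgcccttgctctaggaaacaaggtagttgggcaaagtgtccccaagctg
The Msx2 peak held 30 CpG, the Msx1 peak 7 and the Dlx1-Dlx2 peak 8.

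Homeodomain proteins of these families bind sequences with the core TAATTA, which reads the same on both strands. That core was searched for in the central 300 bp around each peak's midpoint and was found in 5 of the 47 peaks, beside 3.6% of all peaks. The matches were in peaks of Msx1 (rank 9113), Msx2 (ranks 6754 and 14336), Prrx2 (rank 6636) and Dlx2 (rank 5298), so 4 were at Msx and Prrx genes and 1 at a Dlx gene. Of the 5 peaks 4 were promoter peaks, a kind of peak of which 1.37% in the whole list held the core, while 8.82% of distal peaks did. All of the matches lay inside the called peak. The search left out the rest of peaks longer than 300 bp. The 150 bp before the first Prrx1 start held 1 TAATTA, under the 8000 bp peak but away from its centre. The 80 bp around 3 of them are shown, with TAATTA in capitals, on the strand of the gene.
Msx1, rank 9113, chr5:37825851-37825930, minus strand: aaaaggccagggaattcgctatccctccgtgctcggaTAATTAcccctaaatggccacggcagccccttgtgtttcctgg
Msx2, rank 6754, chr13:53471584-53471663, minus strand: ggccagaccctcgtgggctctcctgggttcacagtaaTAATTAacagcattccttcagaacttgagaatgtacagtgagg
Prrx2, rank 6636, chr2:30836614-30836693, plus strand: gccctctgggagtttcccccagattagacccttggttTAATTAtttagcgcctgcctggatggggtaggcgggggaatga
The Msx1 site lies upstream of the gene, and those of Msx2 and Prrx2 are intronic. The GLI core GACCACCCA, searched on both strands of the same central 300 bp, was found there in 0 of the 47 peaks and in 0.326% of all peaks. CATATG was in 1 of the 47, the Msx1 peak shown above, and in 1.89% of all. These counts describe letters in a fixed window and do not show binding of any factor.

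The 10 genes were set beside related genes. Of 39 other NK-like homeobox genes, the class that holds Msx and Dlx, 24 had a peak at their own promoter (61.5%, interval 45.9 to 75.1%), and the median covered share of their windows was 1.38%. The longest promoter peaks of that list were at Nkx1-1 (1700 bp), En2 (1600 bp) and Barx2 (1250 bp), all shorter than that of Msx1. They were longer than those of Msx2 and the Dlx genes, which were at most 900 bp. Among genes with a promoter peak, the median of the longest one was 600 bp for the 10 genes and 575 bp for this list. It was 650 bp for all coding genes. Of 26 other paired-class homeobox genes, the class of Prrx, 12 had a promoter peak (46.2%, interval 28.8 to 64.5%), with a median covered share of 1.29%. Pitx1, which specifies the hindlimb, had a promoter peak of 7650 bp at rank 73, close in length to that of Prrx1. Shox2, a factor for proximal limb skeleton, had one of 5450 bp at rank 344, and Gsc one of 2350 bp.

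All 10 genes of a list of BMP ligands, receptors and SMADs, which act upstream of Msx genes, had a promoter peak. The longest were at Bmp4 (2500 bp), Bmp7 (2100 bp) and Bmp2 (2000 bp), and the start base was covered at 8 of the 10. Of 6 ectoderm and ridge genes linked to Dlx genes, 4 had one. Jag2, a Notch ligand, had the longest at 2200 bp, followed by Sp6 at 550 bp and Fgf8, the ridge growth factor, at 250 bp. The median covered share of the window was 1.87% for the BMP list and 2.11% for the ectoderm list, each below the 6.40% of the 10 homeobox genes. Peaks shared by a Dlx pair enter that 6.40% for both genes. The share also depends on gene length, which was not compared between the lists. The median longest promoter peak was 600 bp for the 10 genes, beside 575 bp for the paired-class list, 1650 bp for the BMP list and 400 bp for the ectoderm list.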

How the data were processed

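Per the labels, chromatin of E11.5 limb buds was fixed for a few minutes and precipitated with an antibody against HDAC1. The submitters' processing notes name Bowtie2 2.2.5 and the build mm10. The authors called peaks with CisGenome against input (false discovery rate under 0.05) and deposited 1 table of peak coordinates, with no column of a single sample. Depth is therefore not known from it for each peak and was not corrected for.

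Start and end were taken as 1-based, both inclusive, and peaks were intersected, at 1 bp or more, with GENCODE M21 basic genes. All fitted within the GRCm38 chromosomes. Promoters ran from 2 kb before protein-coding starts to 1 kb past them. Sequence and RefSeq starts came from the RefSeq GRCm38 assembly. Overlap, covered length and merging were tested on 500 simulated lists, all of which matched a base-by-base count. All comparisons are descriptions with no test. Named were the 10 members, the 3 genes of each list with the longest promoter peak, and genes whose promoter or body held a member's peak. Members and lists were chosen with earlier results of these data known. The paired-class list has 27 genes, of which 26 were found. Alternatives were other flanks, promoter sizes and starts, the first part of the ranked list, merged peaks and single loci left out. The software was matplotlib 3.10.9, scipy 1.17.1 and numpy 2.4.6 under Python 3.11.15.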

Additional observations from a re-analysis of the deposited data

How the results depend on the processing

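Of 60 recomputed values, 47 stayed within the interval of the reported value or, for counts and covered shares, within 1.5 times of it, 9 moved further and 4 changed direction. The number of peaks at the 10 genes was 30 without flanks, 15 in the better-ranked part of the list and 23 after merging. The difference between Msx and Prrx loci and Dlx loci in distal share was 13.3 percentage points, -2.71 without flanks, 23.3 with promoters of 5 kb on both sides and 31.0 after merging. Leaving out single loci gave 4.46 (without Dlx3-Dlx4) to 30.7 (without Dlx1-Dlx2), with 7.63 without Msx1. The difference in median length was 75 bp, 0 bp in the better-ranked part, -75 bp after merging and -25 bp without the Dlx5-Dlx6 locus. It was 200 bp without flanks, 125 bp with flanks of 5 kb and 50 bp with 50 kb. Without Msx1 it was 175 bp, without Dlx1-Dlx2 125 bp, and without Msx2 or Dlx3-Dlx4 50 bp. The difference in median rank was -957.5, and -926.5 after merging. It was -2734 without flanks, -596.5 with 5 kb and -427 with 50 kb. It was -2755 without Dlx1-Dlx2, -1535.5 without Msx1 and -427 without Prrx2. The difference in covered share of the window was 3.35 percentage points. It was -13.5 without flanks, 4.16 with flanks of 5 kb, 2.31 with 50 kb, 3.02 in the better-ranked part and 5.93 without the Dlx1-Dlx2 locus. It was 1.18 without Dlx3-Dlx4, 1.92 without Msx1 and 5.19 without Prrx2. RefSeq starts and leaving out single loci for the distal and covered shares were chosen after seeing the data, and with RefSeq starts a promoter peak was found at all 10 genes. The causes were not tested beyond the construction of each alternative. No paired analysis was possible because the peak list holds no value of a single sample, and for the same reason no replicate could be left out. Weaker sites can lie below the peak threshold, and an absent peak is no proof of absent binding.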
